A study of Mus musculus with 11 samples.

Results

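Chromatin accessibility was described at 44 genes of the TGF-β and BMP pathway in mouse haematopoietic stem cells (HSCs). The members were chosen by gene name, and every ATAC-seq peak whose assigned gene was a member was taken. All 44 genes had at least 1 peak, 369 of the 94410 peaks in all. Each peak is assigned to the gene with the nearest annotated start site, so a peak is a measure of open DNA near a gene and not of its expression. ATAC-seq marks open DNA through a transposase that inserts sequencing adapters there. The HSCs were purified from bone marrow of mice with the genotype Gfplc3/Gfplc3, a GFP-LC3 reporter of autophagy carried by every group, at steady state and with no further treatment. LC3 sits on autophagosomes, and GFP is lost when autophagy degrades it. Young HSCs (5 libraries) were unfractionated. Old HSCs were sorted into AThi, with low GFP, labelled as autophagy-engaging, and ATlo, with high GFP, labelled as not engaging it, as 3 pairs of libraries. Age in numbers, sex and the sorting gates are not given in any source used here, and age and fractionation cannot be told apart in comparisons with young HSCs.

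TGF-β, activin and BMP ligands are secreted dimers that bring together type I and type II receptor kinases. The type I receptor phosphorylates receptor SMADs, which join SMAD4 and enter the nucleus, while SMAD6, SMAD7, SKI and SKIL restrain the response. In the bone marrow, TGF-β signalling is known for holding HSCs in quiescence, and BMP signalling is known from the niche and from the embryonic origin of HSCs.

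Promoter sequences were available from RefSeq (GRCm38.p6) for 29 of the 44 genes, as 41 start sites. The 250 bases before the start are given for 5 genes whose peaks over the start site were called in a comparison with young HSCs: Gdf11, Bmp4 and Bmpr1a on the higher side, Smad3 and Smad6 on the lower side. They lie on the minus strand at chr10:128891719-128891968 (Gdf11), chr14:46390670-46390919 (Bmp4), chr14:34502547-34502796 (Bmpr1a), chr9:63757995-63758244 (Smad3) and chr9:64022060-64022309 (Smad6). Capitals mark the bases inside the peak, which are the last 37 for Gdf11, the last 138 for Bmp4 and all 250 for Smad3 and Smad6. This rests on gene spans of equal length in the RefSeq table and the deposited tables, which differ by 0 bases for Gdf11 and Bmp4, 1 for Smad3 and 26 for Smad6. For Bmpr1a the spans differ by 797 bases, and capitals mark a GC-rich BMP-SMAD motif instead.
Gdf11: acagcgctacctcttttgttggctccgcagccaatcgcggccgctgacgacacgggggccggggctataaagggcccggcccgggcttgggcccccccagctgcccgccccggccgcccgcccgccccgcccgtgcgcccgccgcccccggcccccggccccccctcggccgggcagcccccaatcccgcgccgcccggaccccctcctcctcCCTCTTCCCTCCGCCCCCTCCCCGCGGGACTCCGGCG
Bmp4: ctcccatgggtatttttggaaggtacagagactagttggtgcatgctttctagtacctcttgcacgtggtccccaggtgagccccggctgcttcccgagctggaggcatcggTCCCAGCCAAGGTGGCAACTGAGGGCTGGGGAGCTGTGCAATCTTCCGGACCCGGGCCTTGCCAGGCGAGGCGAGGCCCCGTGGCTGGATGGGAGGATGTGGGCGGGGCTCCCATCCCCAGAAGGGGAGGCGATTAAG
Bmpr1a: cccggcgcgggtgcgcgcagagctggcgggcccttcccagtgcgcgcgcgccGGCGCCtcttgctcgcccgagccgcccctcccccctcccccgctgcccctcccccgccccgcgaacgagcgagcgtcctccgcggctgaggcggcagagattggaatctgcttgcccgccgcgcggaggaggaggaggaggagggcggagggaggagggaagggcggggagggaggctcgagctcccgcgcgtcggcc
Smad3: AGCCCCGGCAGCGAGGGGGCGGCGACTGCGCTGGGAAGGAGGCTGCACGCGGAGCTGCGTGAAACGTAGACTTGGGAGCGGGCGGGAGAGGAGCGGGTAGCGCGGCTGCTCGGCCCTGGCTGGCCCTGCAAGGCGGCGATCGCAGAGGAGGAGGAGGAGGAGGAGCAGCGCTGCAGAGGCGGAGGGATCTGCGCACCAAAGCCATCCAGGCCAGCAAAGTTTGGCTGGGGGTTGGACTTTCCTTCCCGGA
Smad6: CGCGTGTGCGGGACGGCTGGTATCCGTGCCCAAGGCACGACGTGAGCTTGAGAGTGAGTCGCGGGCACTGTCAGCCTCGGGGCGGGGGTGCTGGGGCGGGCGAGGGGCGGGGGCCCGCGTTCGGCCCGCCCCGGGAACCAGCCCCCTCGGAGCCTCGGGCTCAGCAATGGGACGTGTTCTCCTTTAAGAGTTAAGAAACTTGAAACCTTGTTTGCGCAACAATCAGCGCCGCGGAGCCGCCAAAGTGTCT

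Of the member promoters, 9 of 41 (22.0%) held the motif GGCGCC, which reads the same on both strands, against 9.59% of all 32851 promoters of that length. These 9 start sites belong to 8 genes, Bmpr1a, Bmpr2, Grem1, Ltbp4, Ski, Smad5, Smad9 and Tgfbr1. Member promoters were also richer in G and C, with a median of 64.4% against 52.4% for all promoters, and the part of base composition in the motif share was not tested. The SMAD palindrome GTCTAGAC and the CAGA box AGCCAGAC, both searched on both strands, were in 0 of the 41 member promoters and in 0.167% and 1.05% of all promoters. A match is a description of letters and not a measured binding site.

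Of the 369 member peaks, 77 were annotated as promoter (within 3 kb of a start site), 144 as intron and 126 as distal intergenic. The mean normalised count per peak, the authors' average over all libraries, had a median of 30.1 in members and 27.5 over all peaks. Values per library were not analysed here, so the level in each group was computed from the authors' deposited mean and log2 changes and carries no SD. The cell type was checked against fixed markers. All 10 HSC markers had a promoter peak, with mean normalised counts from 28.6 (Slamf1) to 414 (Mecom). Lymphoid markers had a promoter peak for 3 of 6 genes, at 13.7 to 56.0, and Cd3e, Cd8a and Cd79a had none. Promoters were also open at all 8 endothelial and stromal markers (27.7 to 214), at 5 of 6 megakaryocyte and platelet markers (76.2 to 283), at 5 of 6 myeloid markers (12.6 to 304) and at 4 of 5 erythroid markers (55.1 to 229). The median of these counts was 193 at HSC, 232 at megakaryocyte and platelet, and 151 at erythroid markers. It was lower at endothelial and stromal (97.2), myeloid (58.7) and lymphoid markers (14.2). The most open promoters of the non-lymphoid lists thus lay within the range of HSC markers, while the stromal and myeloid medians lay below the HSC median. In such bulk samples, fewer cells of a type and less accessibility per cell cannot be told apart.

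In old AThi HSCs, peaks at ligand, receptor and antagonist genes were called higher than in young HSCs far more often than lower. A call is an adjusted p under 0.05 by the authors' deposited table, adjusted over all peaks. Of 357 member peaks with an adjusted p, 41 (11.5%) were higher and 4 (1.12%) lower, where 7.57% of all peaks were higher and 2.74% lower. In old ATlo HSCs 38 member peaks (10.6%) were higher and 6 (1.68%) lower, against 6.88% and 2.54% of all peaks. Both comparisons use the same young libraries, so they are not independent of each other. The median log2 change over all member peaks was 0.04 in AThi and 0.03 in ATlo, against -0.04 and -0.03 over all peaks. A higher peak lay at 23 of 44 members in AThi and at 22 in ATlo, where 23.9% and 21.9% of all genes had one. A lower peak lay at 4 members in AThi and 5 in ATlo, against 10.6% and 10.1% of all genes. Members had 8.39 peaks per gene against 4.54 for all genes, so these shares of genes do not compare like with like.

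**Figure D1:**
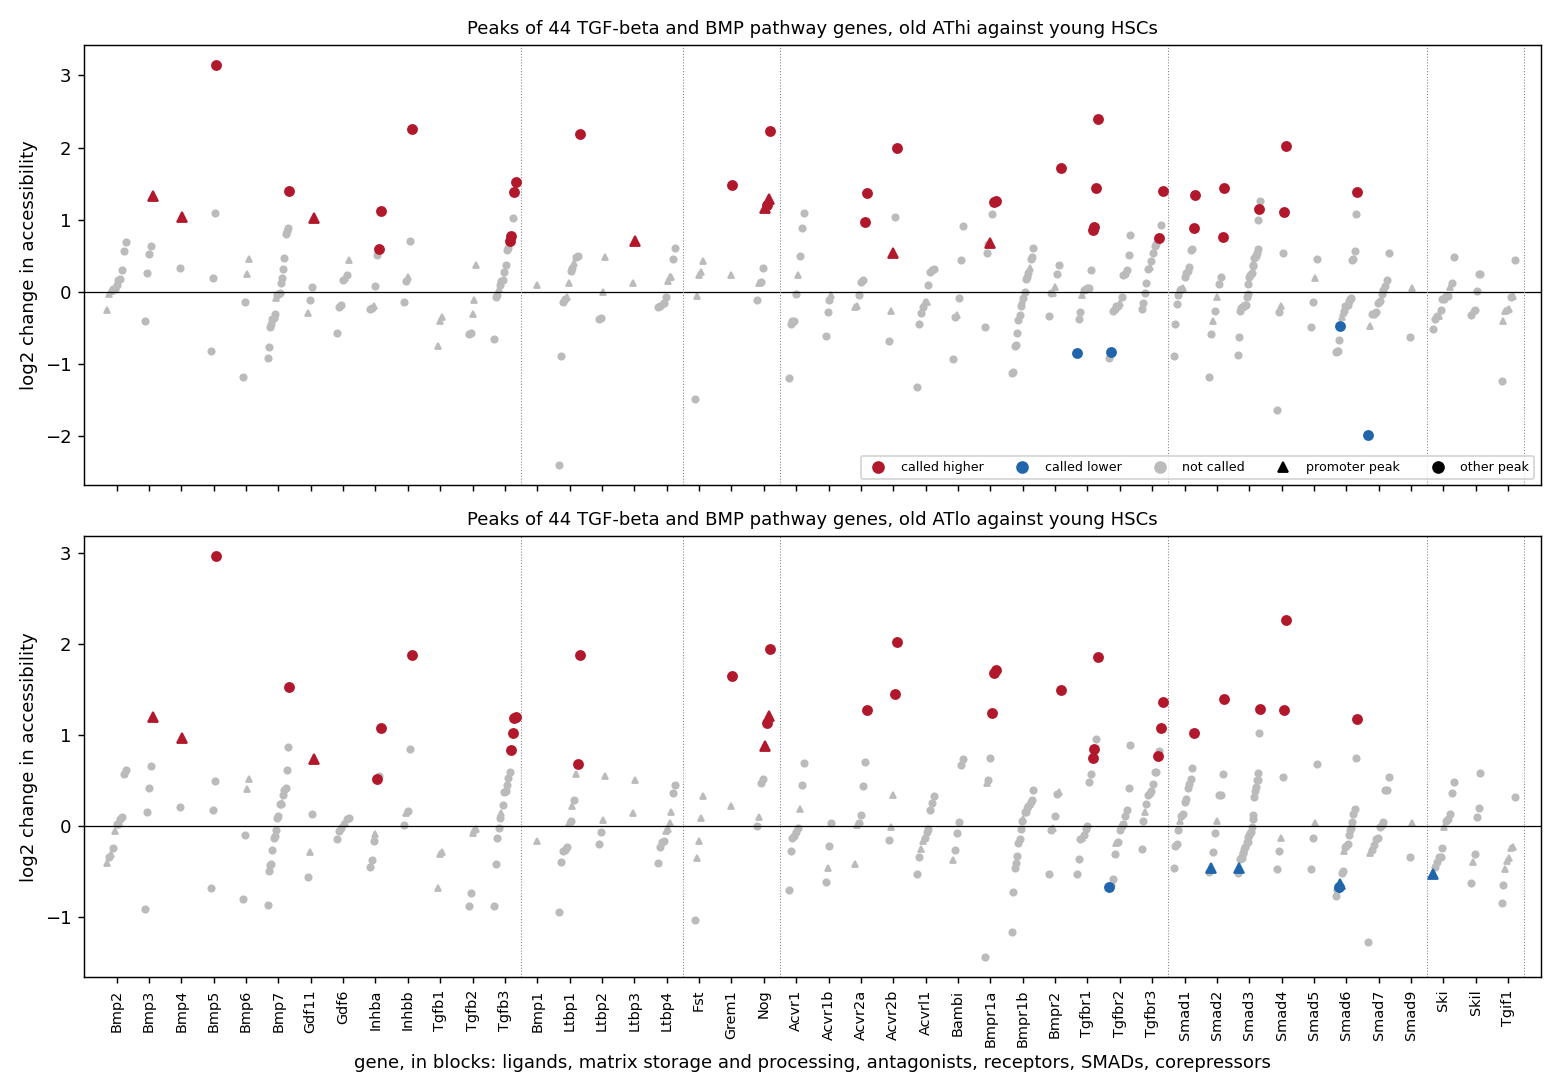
Log2 change in accessibility (vertical axis) of each of the 369 member peaks by gene (horizontal axis, in blocks by role), for old AThi (top) and old ATlo (bottom) against young HSCs. Red points are called higher (41 and 38), blue points lower (4 and 6), grey points not called, and triangles are promoter peaks. Lower calls lie only at receptor, SMAD and corepressor genes. They are too few to compare the roles, and over all peaks 2.74% were lower in AThi and 2.54% in ATlo.

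Scaling between libraries sets how many calls go each way. The strongest 10% of promoter peaks, 2289 peaks, had a median log2 change of -0.22 in AThi and -0.30 in ATlo. With every log2 change moved up so that this median was 0, all 41 and 38 higher member calls were kept. That outcome was set in advance, because adding the same amount to every change strengthens higher calls and weakens lower ones. The move also takes the strongest promoters as unchanged in the median, which was not tested. Of the lower member calls, 2 of 4 were kept in AThi and 0 of 6 in ATlo. The share of member calls that were higher then moved from 91.1% to 96.9% in AThi and from 86.4% to 100% in ATlo. Over all peaks it moved from 73.4% to 93.7% and from 73.0% to 98.1%. The lower calls described below are therefore lower relative to the authors' scaling.

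Among the 13 ligand genes, 8 had a higher peak in each old fraction and none had a lower one. Over all genes, 23.9% had a higher peak in AThi and 21.9% in ATlo, and 10.6% and 10.1% had a lower one. By peaks, 12 of the 92 ligand peaks were higher in each fraction, against 7.57% and 6.88% of all peaks with an adjusted p. Not all of the 92 had an adjusted p. The largest change lay at Bmp5, which encodes a bone morphogenetic protein, in intron 1 of 6, 10.6 kb downstream of the start site (mm39, chr9:75693253-75693725). Its level was 3.46 normalised counts in young, 30.7 in AThi and 26.9 in ATlo HSCs, so that both old fractions lay above young. The authors' deposited table gave it log2 changes of 3.15 (SE 0.46, adjusted p = 1.02e-09) in AThi and 2.96 (SE 0.46, adjusted p = 1.68e-08) in ATlo. Bmp5 had 0 promoter peaks. A peak 48.1 kb downstream of the start of Inhbb, the activin βB subunit gene, stood at 9.09 in young, 43.3 in AThi and 33.3 in ATlo HSCs. By the authors' deposited table its log2 changes came to 2.25 (SE 0.35, adjusted p = 2.36e-08) and 1.87 (SE 0.36, adjusted p = 1.12e-05).

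Ligand promoters were also among the higher calls. The promoter peak of Gdf11, a TGF-β family ligand, had levels of 79.7 in young, 161 in AThi and 132 in ATlo HSCs. In the authors' deposited table it rose by log2 1.02 (SE 0.17, adjusted p = 4.12e-07) and 0.73 (SE 0.17, adjusted p = 0.000999). Bmp4, whose product specifies mesoderm and blood in the embryo, had a weak promoter peak at 21.7, 44.6 and 42.2 in young, AThi and ATlo HSCs. Its log2 changes of 1.04 (SE 0.30, adjusted p = 0.0099) and 0.96 (SE 0.30, adjusted p = 0.0191) passed by the authors' deposited table. Bmp3, an atypical BMP that opposes other BMPs, had its promoter peak at 27.6, 69.4 and 63.3 in the same order. The authors' deposited table put it at log2 1.33 (SE 0.28) and 1.20 (SE 0.27), and both passed. So 3 of the 13 ligand genes had a promoter peak that was higher in both old fractions. That is a count of genes, and shares of peaks do not compare with it like with like. Counted by peak, 7.12% of all promoter peaks were higher in AThi and 5.69% in ATlo. Among the 77 promoter peaks of all members the shares were 10.4% and 6.49%.

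The other ligand calls lay away from promoters. Tgfb3, a TGF-β isoform, had 4 higher peaks in each fraction, all of them inside the neighbouring gene Ttll5 and 41.1 to 123 kb from the Tgfb3 start. The most changed of these in AThi, in intron 33 of Ttll5, rose by 1.52 (SE 0.34) in AThi and 1.19 (SE 0.34) in ATlo on the log2 scale by the authors' deposited table. The Tgfb3 promoter itself, at a mean of 176, did not pass (log2 0.04, SE 0.15 and 0.14, SE 0.15 by the authors' deposited table). A distal Bmp7 peak, 123 kb downstream of the start, stood at 34.4 in young, 90.6 in AThi and 98.7 in ATlo HSCs (log2 1.40, SE 0.21 and 1.52, SE 0.21, both called by the authors' deposited table). Inhba, the activin βA subunit gene, had a 5′ UTR peak that rose by 0.59 (SE 0.18, adjusted p = 0.0186) and 0.51 (SE 0.18, adjusted p = 0.0477) by the authors' deposited table. A second Inhba peak, 81.5 kb upstream in intron 1 of B230303A05Rik, rose by 1.12 (SE 0.35) and 1.08 (SE 0.34) there. Tgfb1, the main TGF-β of the marrow, had 3 peaks, all at its promoter, with log2 changes of -0.35 to -0.76 in AThi and -0.29 to -0.68 in ATlo by the authors' deposited table. None of these passed, with a smallest adjusted p of 0.0529.

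Of the 3 secreted antagonist genes, Nog and Grem1 had higher peaks in both old fractions. By peaks, 5 of the 15 antagonist peaks were higher in each fraction, against 7.57% in AThi and 6.88% in ATlo of all peaks with an adjusted p. Not all of the 15 had an adjusted p. Nog encodes noggin, which binds BMP4 and BMP7 and blocks their receptors, and 4 of its 8 peaks were higher in each fraction. Its peak over the start site rose from 70.9 in young to 159 in AThi and 130 in ATlo HSCs. The authors' deposited table gave log2 1.17 (SE 0.19, adjusted p = 6.85e-08) and 0.88 (SE 0.19, adjusted p = 0.000164). A second Nog promoter peak, 0.1 kb upstream, rose by 1.28 (SE 0.29) and 1.21 (SE 0.29), while the third, 0.876 kb upstream, did not pass (0.12, SE 0.31 and 0.09, SE 0.30) by the authors' deposited table. Peaks 95.3 and 109 kb from the start were called in both fractions too. Grem1 encodes gremlin, another BMP trap, and its distal peak in exon 4 of the neighbour Scg5 had levels of 7.98 in young, 22.2 in AThi and 24.9 in ATlo HSCs. That peak passed with log2 1.47 (SE 0.44) and 1.64 (SE 0.42), whereas the Grem1 promoter did not (0.24, SE 0.29 and 0.22, SE 0.29) by the authors' deposited table. Fst, the activin trap follistatin, had 5 peaks and no call.

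Ligands and antagonists of this family are products of marrow stroma as well as of blood cells, so the stromal markers stand beside them. Of 60 tested peaks at the 8 endothelial and stromal markers, 10 (16.7%) were higher and 2 lower in each old fraction, a larger share higher than the members' 11.5% in AThi and 10.6% in ATlo. Of 19 peaks at megakaryocyte and platelet markers, 3 (15.8%) were higher in AThi and 2 (10.5%) in ATlo. No peak at the myeloid (19 tested), lymphoid (18) or erythroid markers (8) was higher in either fraction. Each of these lists has too few peaks to tell 0 from the 7.57% and 6.88% of all peaks that were higher. Of 162 tested peaks at the 10 HSC markers, 18 (11.1%) were higher in AThi and 13 (8.02%) in ATlo, while 3 and 4 were lower. The HSC markers' share in AThi was thus near the members' 11.5%. The summed promoter level of the endothelial and stromal markers was 716 in young, 827 in AThi and 791 in ATlo HSCs. In the same order it was 2165, 2023 and 1846 at HSC markers and 1012, 1071 and 1008 at megakaryocyte and platelet markers. At myeloid, lymphoid and erythroid markers it was 471, 467 and 456, then 81.2, 80.4 and 91.9, then 573, 590 and 605. The part of other cells in the ligand and antagonist calls was not tested. At the genes that store and process ligands in the matrix, 2 of 29 peaks were higher in each fraction and 0 lower. Not all of the 29 had an adjusted p, and over all peaks 7.57% were higher in AThi and 6.88% in ATlo. Ltbp1, which ties latent TGF-β to the matrix, had a higher peak in intron 3, 83.2 kb from the start. Its log2 changes were 2.19 (SE 0.48) in AThi and 1.88 (SE 0.48) in ATlo by the authors' deposited table. A second peak in that intron, 68.3 kb from the start, rose in ATlo (0.68, SE 0.21, adjusted p = 0.0207) and did not pass in AThi (0.28, SE 0.22), again by the authors' deposited table. The Ltbp3 promoter peak rose by 0.70 (SE 0.19, adjusted p = 0.00572) in AThi and did not pass in ATlo (0.50, SE 0.19, adjusted p = 0.0768) by the authors' deposited table. Ltbp2, Ltbp4 and Bmp1, a protease that cleaves procollagen and the BMP trap chordin, had no call.

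Of the 12 receptor genes, 6 had a higher peak in each fraction, where 23.9% of all genes in AThi and 21.9% in ATlo had one. By peaks, 14 of the 113 receptor peaks were higher in AThi and 13 in ATlo, against 7.57% and 6.88% of all peaks with an adjusted p. Not all of the 113 had an adjusted p. Tgfbr1 encodes the type I TGF-β receptor, and its promoter peak was strong, with a mean of 417. That promoter did not pass (log2 -0.04, SE 0.14 in AThi and -0.13, SE 0.14 in ATlo by the authors' deposited table), while peaks within its intron 1 did. The intron 1 peak 11.1 kb before an internal start site (chr4:47374684-47375087, mm39) went from 7.38 in young to 38.9 in AThi and 26.6 in ATlo HSCs. A second intron 1 peak, 7.15 kb before that start site, rose by 1.44 (SE 0.39, adjusted p = 0.00419) in AThi and did not pass in ATlo (0.96, SE 0.39, adjusted p = 0.109) by the authors' deposited table. Upstream, 2 peaks inside the neighbouring collagen gene Col15a1 were higher in both fractions. A peak between the genes, 32.8 kb upstream, went the other way, from 75.8 in young to 42.0 in AThi HSCs (log2 -0.85, SE 0.24, adjusted p = 0.00634 by the authors' deposited table), a call lost with the scaling above (adjusted p = 0.0525).

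Tgfbr2 encodes the type II receptor that binds TGF-β first, and it had 1 called peak of 13, a lower one. This peak in intron 1, 14.1 kb downstream of the start (chr9:115989174-115990372, mm39), had levels of 127 in young, 70.8 in AThi and 79.4 in ATlo HSCs. It fell by 0.84 (SE 0.20, adjusted p = 0.000977) in AThi and by 0.67 (SE 0.19, adjusted p = 0.0096) in ATlo on the log2 scale by the authors' deposited table. The AThi call was kept with the scaling to strong promoters (adjusted p = 0.0201) and the ATlo call was not (adjusted p = 0.193). The Tgfbr2 promoter, at a mean of 226, did not pass in either fraction (log2 -0.16, SE 0.15 and -0.19, SE 0.15 by the authors' deposited table). Tgfbr3 encodes betaglycan, a coreceptor that presents TGF-β, and its intron 1 peak rose from 18.9 in young to 49.9 in AThi and 48.5 in ATlo HSCs. Intron 2 of Tgfbr3 held 1 further higher peak in AThi and 2 in ATlo.

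Among BMP and activin receptors, the called peaks were all higher. Bmpr1a, a type I BMP receptor, had 3 higher peaks in each fraction. Its promoter peak, at 108 in young, 173 in AThi and 149 in ATlo HSCs, rose in AThi (log2 0.68, SE 0.18, adjusted p = 0.00372) and did not pass in ATlo (0.46, SE 0.18, adjusted p = 0.084) by the authors' deposited table. Its intron 1 peak, 13.1 kb from the start, rose by 1.26 (SE 0.34) and 1.71 (SE 0.32) there. Acvr2b, a type II activin receptor, had a peak in intron 1, 15.1 kb from the start, that went from 17.0 in young to 67.7 in AThi and 68.6 in ATlo HSCs. The authors' deposited table gave this peak log2 2.00 (SE 0.32, adjusted p = 6.62e-08) and 2.02 (SE 0.32, adjusted p = 4.29e-08). The Acvr2b promoter rose in AThi by 0.54 (SE 0.18, adjusted p = 0.0288), the smallest of the higher member calls there, and did not pass in ATlo (0.34, SE 0.18) by the authors' deposited table. A distal peak of its relative Acvr2a, 46.0 kb upstream, rose by 1.37 (SE 0.26) and 1.27 (SE 0.25), and a distal peak of Bmpr2, the type II BMP receptor, by 1.72 (SE 0.44) and 1.49 (SE 0.44) by the authors' deposited table. Acvr1, Acvr1b, Acvrl1, Bmpr1b and the pseudoreceptor gene Bambi had no call.

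Of the 8 SMAD genes, 1 held calls in both directions in AThi (Smad6) and 3 did in ATlo (Smad2, Smad3 and Smad6). The lower calls of these genes were all lost with the scaling to strong promoters. By peaks, 8 of the 94 SMAD peaks were higher and 2 lower in AThi, against 7.57% and 2.74% of all peaks. In ATlo 6 were higher and 4 lower, against 6.88% and 2.54% of all peaks. Smad6, an inhibitory SMAD that blunts BMP signals, had its promoter peak at 476 in young, 373 in AThi and 305 in ATlo HSCs. In the authors' deposited table that promoter fell by 0.64 (log2, SE 0.15, adjusted p = 0.000827) in ATlo, and its AThi change did not pass (-0.35, SE 0.15, adjusted p = 0.129). A broad peak in intron 3 of Smad6 fell in both fractions, by 0.47 (SE 0.16, adjusted p = 0.0314) in AThi and by 0.67 (SE 0.16, adjusted p = 0.000687) in ATlo, by the authors' deposited table. A weaker distal peak 79.5 kb downstream rose instead, from 25.2 in young to 66.0 in AThi and 57.0 in ATlo HSCs (log2 1.39, SE 0.26 and 1.18, SE 0.25 by the authors' deposited table). Smad3, a receptor SMAD of TGF-β, showed the same split. Its promoter stood at 320, 278 and 232 in young, AThi and ATlo HSCs and fell by 0.46 in ATlo (log2, SE 0.15, adjusted p = 0.032), while a peak 44.9 kb upstream rose by 1.15 (SE 0.23) and 1.28 (SE 0.23) by the authors' deposited table. The Smad6 intron 3 calls were lost with the scaling to strong promoters (adjusted p = 0.325 in AThi and 0.0909 in ATlo).

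Smad2, the other receptor SMAD of TGF-β, had a promoter peak at 422 in young, 319 in AThi and 305 in ATlo HSCs. It fell by 0.47 (log2, SE 0.15, adjusted p = 0.0278) in ATlo and did not pass in AThi (-0.41, SE 0.15, adjusted p = 0.0684), while a distal Smad2 peak 49.7 kb downstream rose by 1.43 (SE 0.43) and 1.39 (SE 0.42) by the authors' deposited table. With the scaling to strong promoters the ATlo calls at the Smad2, Smad3 and Smad6 promoters were lost (adjusted p = 0.538, 0.556 and 0.111). Smad4, the common partner of receptor SMADs, had its strongest change in a peak over exon 5 of 10, 40.8 kb from the start (chr18:73795514-73796021, mm39). The level there was 14.6 in young, 59.4 in AThi and 70.3 in ATlo HSCs, 4.06-fold and 4.80-fold above young (adjusted p = 7.39e-09 and 1.87e-11 by the authors' deposited table). The Smad4 promoter did not pass (log2 -0.20, SE 0.17 and -0.14, SE 0.17 by the authors' deposited table). Smad1, a receptor SMAD of BMP signalling, had 2 higher distal peaks in AThi, of which the peak 99.2 kb upstream (log2 1.34, SE 0.32 and 1.02, SE 0.32 by the authors' deposited table) was also called in ATlo. Smad7, the inhibitory SMAD induced by TGF-β, had 1 call, a weak distal peak at 17.1 in young and 4.30 in AThi HSCs, which fell by 1.99 (log2, SE 0.62, adjusted p = 0.0185) by the authors' deposited table and stayed called with the scaling (adjusted p = 0.0335). Smad5 and Smad9, the other BMP receptor SMADs, had no call.

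The corepressor gene Ski had the strongest called member peak, just upstream of its start (0.45 kb), at 640 in young, 507 in AThi and 441 in ATlo HSCs. It fell by 0.54 (log2, SE 0.13, adjusted p = 0.00176) in ATlo and did not pass in AThi (-0.34, SE 0.13, adjusted p = 0.089) by the authors' deposited table, and the ATlo call was lost with the scaling to strong promoters (adjusted p = 0.248). Skil, which encodes the related SnoN, and Tgif1, another SMAD corepressor, had no call. In all, 18 members had no call in either comparison with young. Their 117 peaks had log2 changes from -1.48 to 1.09 in AThi and from -1.17 to 0.73 in ATlo by the authors' deposited table, and missing the threshold does not show that they were equal.

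**Figure D2:**
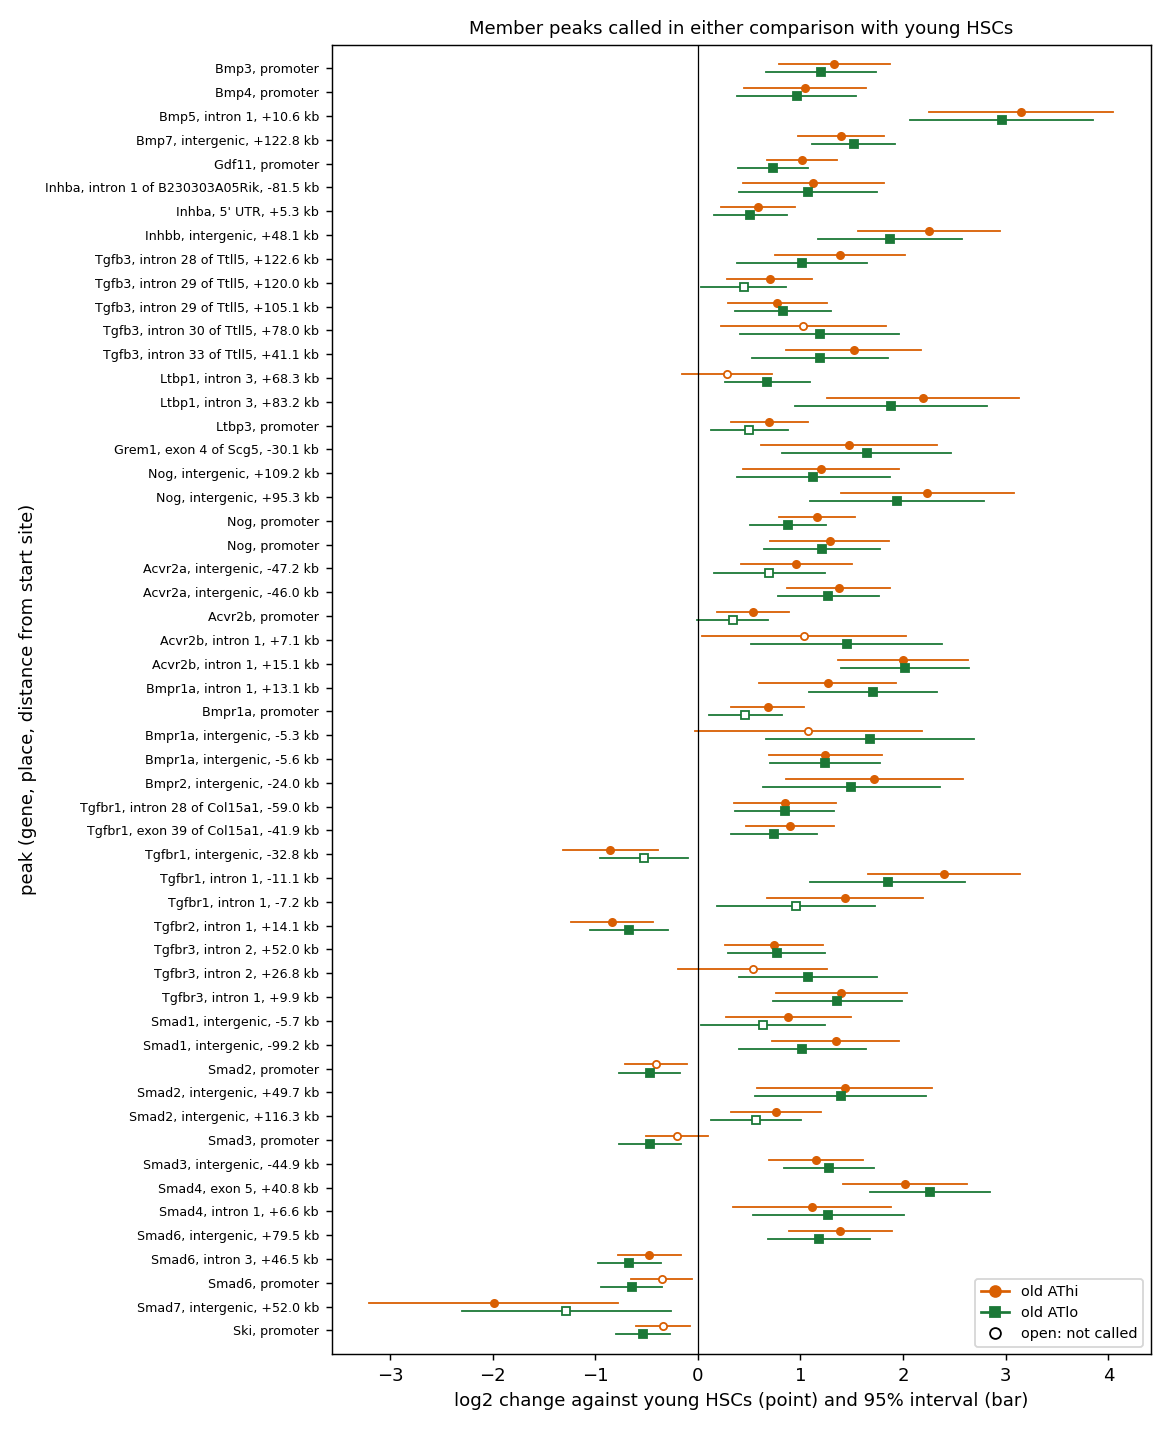
Log2 change against young HSCs with 95% intervals (horizontal axis) for the 54 member peaks called in either comparison, named by gene, place and distance from the start site. Orange circles are old AThi and green squares old ATlo, open symbols did not pass, and Bmp5 intron 1 lies farthest right at 3.15 and 2.96.

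The member peaks that passed the threshold in each comparison are described here by place and level. The old fractions were not shown to differ at any peak. Of the 77 member promoter peaks, 8 (10.4%) were higher and 0 lower in AThi, where 7.12% and 4.44% of all promoter peaks were. In ATlo 5 (6.49%) were higher and 4 (5.19%) lower, near the 5.69% and 5.98% of all promoter peaks. The median log2 change of member promoters was -0.01 in both fractions, against -0.11 and -0.14 over all promoter peaks. Outside promoters, 33 of 280 member peaks (11.8%) were higher in each fraction, against 7.71% of such peaks in AThi and 7.27% in ATlo. Lower calls there numbered 4 (1.43%) in AThi and 2 (0.714%) in ATlo, against 2.19% and 1.42%. The higher calls had a median mean normalised count of 37.0 in AThi and 31.4 in ATlo, a little above the 30.1 of all member peaks. The 4 lower calls in AThi had a median of 79.3, ranging from 10.9 at Smad7 to 219 at Smad6, and so overlapped the higher calls. Over all peaks in AThi the medians were 43.6 for higher and 61.6 for lower calls. In ATlo the 6 lower calls had a median of 323, and over all peaks the medians were 39.9 for higher and 169 for lower calls. The lower calls thus had the higher median level, by more in ATlo than in AThi, and the part of peak level in the member calls was not tested. Of the 41 higher calls in AThi and the 38 in ATlo, 8 each overlapped a transcript of another gene.

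**Figure D3:**
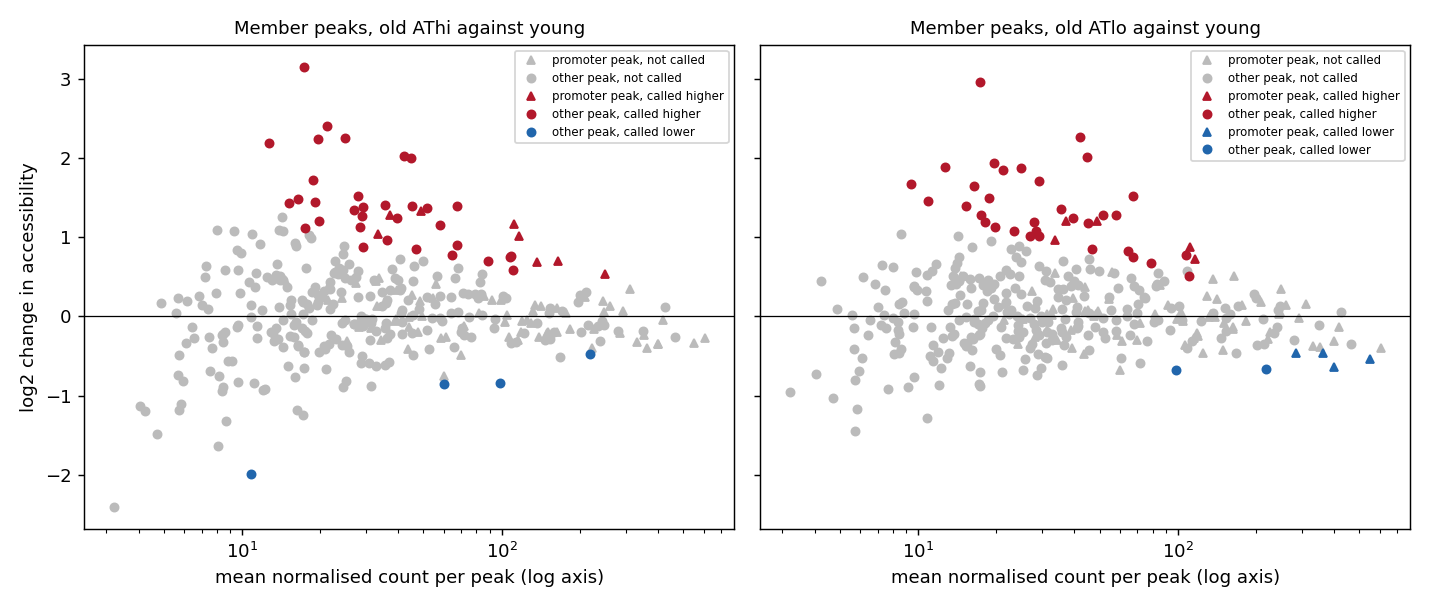
Log2 change against young HSCs (vertical axis) by mean normalised count (horizontal axis, log scale) for member peaks in old AThi (left) and old ATlo (right). Higher calls (red) have medians of 37.0 and 31.4, and lower calls (blue) have medians of 79.3 and 323.

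Between the old fractions, no member peak differed by the authors' DESeq2 test. None of the 94410 peaks was called (0%), and every adjusted p was 1.00 after rounding. At an unadjusted p under 0.05 there were 3 member peaks of 369 (0.813%) and 1683 of all peaks (1.78%). The 3 with the smallest p, none of which passed, were a Smad3 intron 1 peak (AThi minus ATlo log2 0.85, SE 0.38, p = 0.0255) and 2 peaks of Acvrl1, a type I receptor known from endothelium (-1.50, SE 0.74, p = 0.0435 and 0.35, SE 0.17, p = 0.0473), by the authors' deposited table. Both shares at an unadjusted p under 0.05 lie below the share that this threshold gives when nothing differs. Whether the authors' test took the pairs of old libraries into account is not given in any source used here. The absence of calls does not show that the fractions were equal. The median SE of member peaks was 0.35, so that a 95% interval reached 0.69 on either side of the estimate. For peaks called in a single fraction, the difference between fractions was not shown. For the Smad6 promoter it was 0.29 with an interval from -0.04 to 0.62, and for the Bmpr1a promoter 0.22 with an interval from -0.17 to 0.60. For the Bmp5 intron 1 peak it was 0.19, from -0.60 to 0.98.

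**Figure D4:**
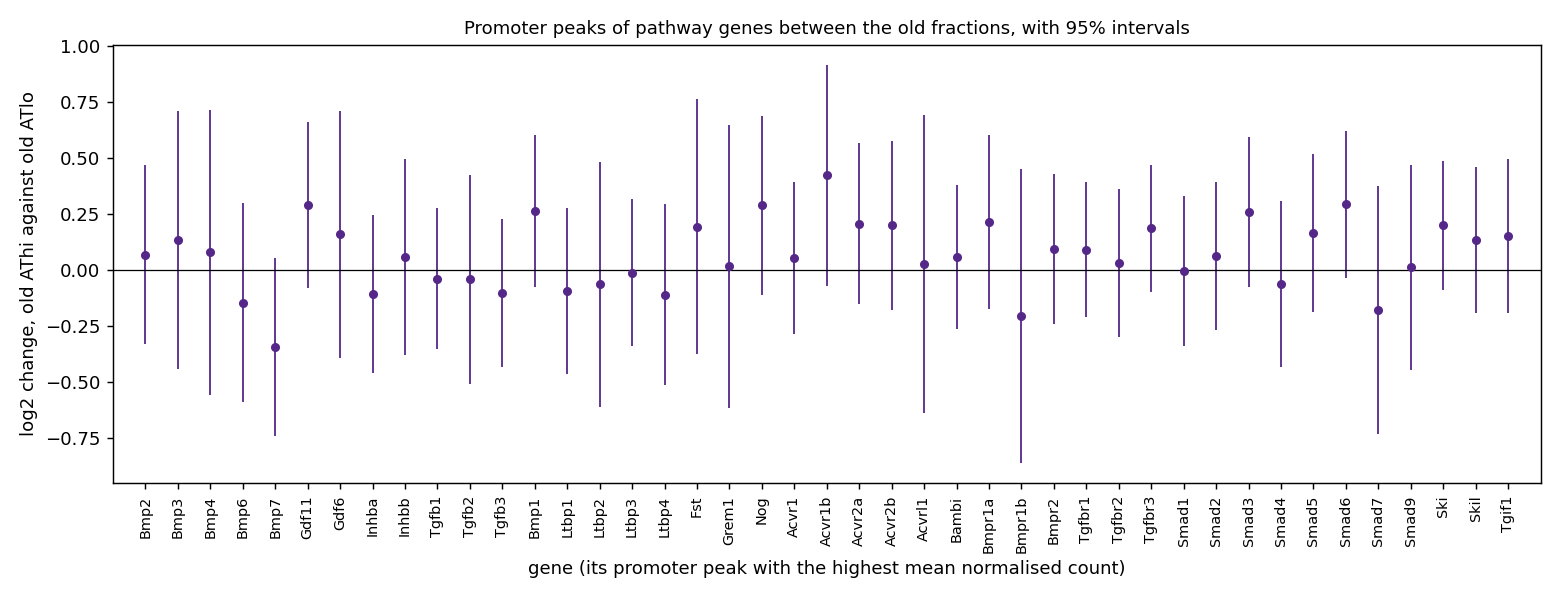
Log2 change between old AThi and old ATlo HSCs (vertical axis, points) with 95% intervals (bars) for the strongest promoter peak of the 43 members that have a promoter peak. All 43 intervals include 0.

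Further genes of the pathway, 61 in a list set apart from the members, had peaks at 58 genes. Of 332 peaks with an adjusted p, 31 (9.34%) were higher and 8 (2.41%) lower in AThi, and 25 (7.53%) and 8 (2.41%) in ATlo. Over all peaks the shares were 7.57% and 2.74% in AThi, and 6.88% and 2.54% in ATlo. In AThi 21 of these genes held a higher call, 7 a lower call and 36 no call, and in ATlo 16, 7 and 38. Of all genes, 23.9% held a higher and 10.6% a lower call in AThi, and 21.9% and 10.1% in ATlo. These gene shares take no account of the number of peaks per gene. The smallest p among them in both fractions belonged to a promoter peak of Hjv, a BMP coreceptor of iron control, which rose by 1.83 (SE 0.23) and 1.59 (SE 0.23) by the authors' deposited table. Other higher peaks were a distal peak of Map3k7, the kinase TAK1 (log2 1.79, SE 0.23 in AThi), a peak 9.1 kb upstream of the SMAD target gene Id4 (2.61, SE 0.35) and a distal peak of the BMP-binding Fstl1 (2.61, SE 0.35) by the authors' deposited table. Lrrc32, which holds latent TGF-β on the cell surface, had a distal peak that fell by 1.78 (SE 0.42) in AThi and did not pass in ATlo (-0.90, SE 0.34, adjusted p = 0.073), by the authors' deposited table. Another distal Lrrc32 peak rose in both fractions, by 1.25 (SE 0.23) in AThi and 1.34 (SE 0.23) in ATlo, by the same authors' deposited table. Pmepa1, a TGF-β target that dampens SMAD signalling, had a distal peak that fell by 0.84 (SE 0.21) in AThi and an intron 1 peak that fell by 0.74 (SE 0.18) in ATlo by the authors' deposited table. A second Hjv peak and a distal peak of Bmper were lower in both fractions, and the promoter of Smurf1, a ligase that degrades SMADs, was lower in ATlo (log2 -0.76, SE 0.25) by the authors' deposited table.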

How the data were processed

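Per the submitters' processing notes, BWA (alignment), MACS2 (peaks), featureCounts (counting), DESeq2 (testing), ChIPseeker (annotation) and the trimmers cutadapt and Trim Galore were used. Settings, read shifting, duplicate handling and peak merging are not given in any source used here. The deposited files held 3 tables of the authors' comparisons over the same peaks, with 0 columns of values per library, so no model was refitted and depth per library was not analysed here. The authors' mean normalised count per peak is a signal averaged over 11 libraries. The authors' deposited log2 fold changes and SEs, the Wald statistic (a score) and the p-values, adjusted by Benjamini-Hochberg over all peaks, were taken unchanged. For 1831 peaks, 12 of them members, the authors' deposited table has no adjusted p. Intervals are 1.96 SE on each side. Group levels were computed as the values that keep the deposited log2 changes and average to the deposited mean. The labels do not say that libraries came from separate animals, so the spread behind the p-values may be technical. Isolation took 2 days, and the day of each library was not given, so day and group cannot be told apart.

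Both GRCm38 and mm39 are named in the submitters' processing notes. Peak coordinates were taken as mm39, because gene ends equalled those of the RefSeq GRCm38.p6 table for only 273 of 20810 genes; that table gave names (20791 matched) and promoter sequences. Members, role groups and lists were chosen with earlier results of these data known. By the rule for named genes, members with a called peak were described by their called peaks and strongest promoter peak, those without by range and count, and further pathway genes by the 4 smallest p per direction. Tgfb1 values were added after they were seen. The rescaling code was run on simulated data that gave every peak the same offset and changed few peaks. Such data cannot show whether the strongest promoters are unchanged between the real groups. Python 3.11.15, pandas 2.3.3 and scipy 1.17.1 were used.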

Additional observations from a re-analysis of the deposited data

How the results depend on the processing

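No paired analysis was possible because the files used here hold no values per library. Fits that leave out a library were not run for the same reason. For old AThi against young, the 41 higher member calls became 62 with the scaling to strong promoters and 8 with promoter peaks alone. The 4 lower calls became 2 at an adjusted p under 0.01, 11 under 0.1, 1 with at least a 2-fold change, 2 with the scaling and 0 with promoters alone. For old ATlo against young, the 38 higher calls became 20 at an adjusted p under 0.01, 85 with the scaling, 5 with promoters alone and 25 within 50 kb of the start site, a limit chosen after seeing the data. The 6 lower calls became 13 under 0.1, 0 with at least a 2-fold change and 0 with the scaling. Beyond the fewer peaks, stricter threshold or upward shift that a setting sets itself, the cause of these moves was not tested. No member peak called under the authors' scaling changed sign with the rescaling. Higher calls could not do so, because every change against young was moved up. The other alternatives, a mean normalised count of at least 10 and the removal of peaks overlapping another gene (added after seeing the data), kept each count within 1.5 times. The comparison of AThi with ATlo had 0 member calls in every setting. Precision was low at weak peaks such as that of Smad7, whose AThi interval ran from -3.21 to -0.77.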
